A study of Mus musculus with 32 samples.

Results

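Transcripts of heart muscle were followed in the blood of 32 mice, from which blood had been drawn by puncture of the heart. The set comprised 10 genes, Myl2, Myl3, Myl7, Myh6, Tnnt2, Tnni3, Actc1, Nppa, Mb and Ckm, chosen by name. All probes carrying these names were taken, 11 of the 39429 probes that were not controls, with 2 probes for Myh6 and 1 for each of the other 9 genes. Blood of each animal was hybridised to 1 Agilent 1-colour array, and the processed signal of a probe is its brightness in arbitrary units after background subtraction within the array. A probe counted as detected where the scanner software marked it as well above background. Of the 10 genes, 5 (Tnnt2, Nppa, Myl3, Myh6 and Myl2) were detected on 4 or more arrays of some group and were tested between groups, among 15164 genes. The other 5 (Mb, Ckm, Tnni3, Actc1 and Myl7) did not pass this filter and are described array by array.

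All animals were male and of the C57BL/6 strain, and all blood was taken 24 h after X rays or a mock exposure. Wild-type (WT) mice received 0 Gy (6 mice) or 8 Gy (5 mice), mice lacking ATM (ATM-/-, written Atm on the plots) received 0 Gy (5 mice) or 4 Gy (6 mice), and Scid mice received 0 Gy (5 mice) or 3 Gy (5 mice). ATM is a kinase that signals DNA double-strand breaks, and Scid mice carry a defect in DNA-PKcs, a kinase needed to join such breaks. The dose thus differed with the genotype, and the ATM-/- and Scid alleles were present in every cell, so that effects within the blood and outside it cannot be told apart. Blood of all groups went into a lysing RNA stabiliser and was depleted of globin transcripts. In blood as a whole, a lower number of cells of a kind and less RNA in each of them cannot be told apart. Markers of blood cells were present throughout, since 12 of 15 were detected on all 32 arrays, among them Alas2 of red cell precursors, Pf4 of platelets and Itgam of myeloid cells.

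Heart muscle contracts as myosin heads on the thick filament pull on actin of the thin filament, and the troponin complex on the thin filament lets calcium switch this on. Myh6 encodes the myosin heavy chain that predominates in the adult mouse heart. Myl2 and Myl3 encode light chains of the ventricle, and Myl7 a light chain of the atrium. Actc1 encodes cardiac actin, Tnnt2 and Tnni3 the cardiac forms of troponin T and troponin I, Mb the oxygen carrier myoglobin, Ckm the creatine kinase of muscle, and Nppa the atrial natriuretic peptide. Blood cells are not known for making the sarcomere proteins among these.

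What each signal rests on is a 60-base probe, and the last part of 7 of them is given here because the report turns on how differently these probes behaved. The first 4 belong to transcripts that came up together on the same arrays, the next is the other Myh6 probe, which stayed dim, and the last pair are atrial transcripts, of which Nppa followed in part and Myl7 did not. Capitals mark AATAAA, the signal for cutting and adenylation at the end of a transcript. Positions are those of the whole probe in build mm9, as the files give them, and no annotation of this build was used here to place them in an exon or a UTR.
Myl2, chr5:122556732-122556791, plus strand: gagaagagaaggactgagccctgaaccaca
Actc1, chr2:113873064-113873123, minus strand: acaagtgcagtttgtttgtgcttcaaatat
Mb, chr15:76846069-76846128, minus strand: ttccactgtcacatttgaccccaaatccaa
Myh6, chr14:55560774-55560833, minus strand: cctcgctgtggccaatacacAATAAAcata
Myh6, other probe, chr14:55584132-55584191, minus strand: atgttaaggccaaggtcgtgtcccgggaag
Nppa, chr4:147376024-147376083, plus strand: taaatgtagatgagtggtctagtggggtct
Myl7, chr11:5798186-5798435, minus strand: cagggatgggatcatctgcaaatcagacct
The Myl7 probe is drawn from a stretch of 250 bases and so joins sequence from both sides of an intron, as do the probes of Tnnt2 (chr1:137747976-137748288) and Ckm (chr7:20002222-20004829). AATAAA, searched on both strands, occurred in the Myl3 probe (chr9:110672238-110672297) and in 1 of the Myh6 probes. Of all 39429 probes, 12.6% held these letters and 4.03% held them on the reverse strand. The Tnni3 probe lies at chr7:4472043-4472102.

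Cardiac actin gave the clearest separation of arrays. In the WT 0 Gy group the Actc1 signal was 1632 in replicate 3 and 1505 in replicate 5, against 2.9 to 5.6 in the other 4 mice. In the WT 8 Gy group it was 238, 440 and 350 in replicates 1 to 3 and 5.9 and 5.3 in replicates 4 and 5. A single ATM-/- mouse, 0 Gy replicate 2, reached 35.5, while the other 4 unirradiated ATM-/- mice gave 2.6 to 7.0 and the 6 mice given 4 Gy gave 2.6 to 5.4. Scid mice at 0 Gy gave 335 in replicate 2 and 150 in replicate 4, against 2.5, 2.6 and 4.1 in replicates 1, 3 and 5, and at 3 Gy replicate 4 gave 145 against 2.6 to 5.0 in the other 4. High signal thus occurred in a few mice of 5 of the 6 groups, irradiated and unirradiated alike, and these 9 arrays were the only ones on which Actc1 was well above background. The lowest of the 9 stood at 35.5 and the highest of the other 23 at 7.0.

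Myoglobin followed the same arrays. Mb reached 2113 and 1224 in WT 0 Gy replicates 3 and 5, 399, 757 and 723 in WT 8 Gy replicates 1 to 3, 49.5 in ATM-/- 0 Gy replicate 2, 567 and 291 in Scid 0 Gy replicates 2 and 4, and 171 in Scid 3 Gy replicate 4. On the other 23 arrays it was at most 20.7, in WT 0 Gy replicate 1, and was well above background on 3 of them. The median signal of both Mb and Actc1 over the 32 arrays, 4.8, was that of arrays not marked as above background.

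The cardiac troponins were detected together on the same arrays. Tnni3 was 500 and 313 in WT 0 Gy replicates 3 and 5, 76.5, 89.6 and 108 in WT 8 Gy replicates 1 to 3, 13.0 in ATM-/- 0 Gy replicate 2, 86.2 and 67.9 in Scid 0 Gy replicates 2 and 4, and 51.9 in Scid 3 Gy replicate 4. It was well above background on these 9 arrays and on none of the other 23. In ATM-/- 0 Gy replicate 2 it hardly differed from the 12.5 of replicate 5, which was not marked as above its background, and ATM-/- 4 Gy replicate 6, the array of lowest brightness in its group, gave a signal of 22.9 that was not marked so either. Tnnt2 was 969 and 642 in the same pair of unirradiated WT mice, 160, 176 and 276 in WT 8 Gy replicates 1 to 3, 23.9 in ATM-/- 0 Gy replicate 2, 226 and 148 in Scid 0 Gy replicates 2 and 4, and 109 in Scid 3 Gy replicate 4. Outside the 9 arrays Tnnt2 was well above background on 3 arrays, with 64.2 in Scid 3 Gy replicate 5, 26.8 in WT 8 Gy replicate 5 and 12.5 in Scid 0 Gy replicate 3.

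The myosin genes carried the same pattern on top of a signal present in most mice. The brighter Myh6 probe gave 2831 and 3485 in WT 0 Gy replicates 3 and 5 against 14.3 to 56.9 in the other 4 mice of that group. It gave 846, 1001 and 1249 in WT 8 Gy replicates 1 to 3 against 30.0 and 31.7, and 139 in ATM-/- 0 Gy replicate 2 against 9.8 to 43.5. Scid 0 Gy replicates 2 and 4 gave 612 and 826 against 27.7 to 32.5, and Scid 3 Gy replicate 4 gave 795 against 10.1 to 47.3. The 9 arrays of high Actc1 were therefore also the 9 highest in Myh6, although Myh6 was well above background on 28 of 32 arrays. Myl2, the ventricular regulatory light chain, did likewise, with 3173 and 2395, then 598, 987 and 1085, then 124, 695, 273 and 311 on the 9 arrays in the same order, and at most 30.0 on the others.

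Myl3, the ventricular essential light chain, was well above background on all 32 arrays, with a median signal of 299.7. It reached 4686 and 4325 in WT 0 Gy replicates 3 and 5, and 919, 1462 and 2268 in WT 8 Gy replicates 1 to 3. In ATM-/- 0 Gy replicate 2 it was 215, within the 94.3 to 580 of the other mice of that group. Of the 9 arrays, 8 were among its 9 highest by signal, and 6 once each array was scaled to its own brightness, as described below for levels. On that scale WT 8 Gy replicate 1 was the lowest of its group, at 1.99, below the median of all arrays of 2.41.

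The 2 Myh6 probes lie 23358 bases apart, and the dim one did not show the pattern at the same size. It was well above background on 2 arrays, WT 0 Gy replicate 3 at 14.7 and WT 8 Gy replicate 1 at 13.7, and its highest signal was 18.7, in WT 0 Gy replicate 5. The gene is read from the minus strand, so the bright probe, with AATAAA within it, lies downstream. Levels of different probes are not compared here, and only the arrays on which each was detected are.

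The atrial genes followed in part or not at all. Myl7 was well above background on 1 array, ATM-/- 0 Gy replicate 1 at 30.3, and was 3.4 in both WT 0 Gy replicates 3 and 5. None of the 9 arrays was among the 9 highest in Myl7. Nppa, whose probe was spotted 10 times on each array, was well above background on 19 arrays, 8 of them among the 9. It was 88.2 in WT 0 Gy replicate 3 and 91.2 in WT 8 Gy replicate 3 but 36.1 in WT 0 Gy replicate 5, and it reached 66.6 in Scid 3 Gy replicate 1, an array with Actc1 at 5.0. On the scaled levels WT 0 Gy replicate 3 was its highest array, at 1.87, and 4 of the 9 arrays were among its 9 highest. Of the other atrial genes listed beside them, Sln was detected on no array and Myl4 on 28 arrays, with 1 of the 9 among its 9 highest levels. Ckm, the muscle creatine kinase, was detected on 4 arrays, with 45.9 in WT 0 Gy replicate 2, 38.0 in WT 0 Gy replicate 3, 33.9 in WT 8 Gy replicate 5 and 13.8 in WT 8 Gy replicate 1, so that only a pair of the 9 arrays were included.

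**Figure D1:**
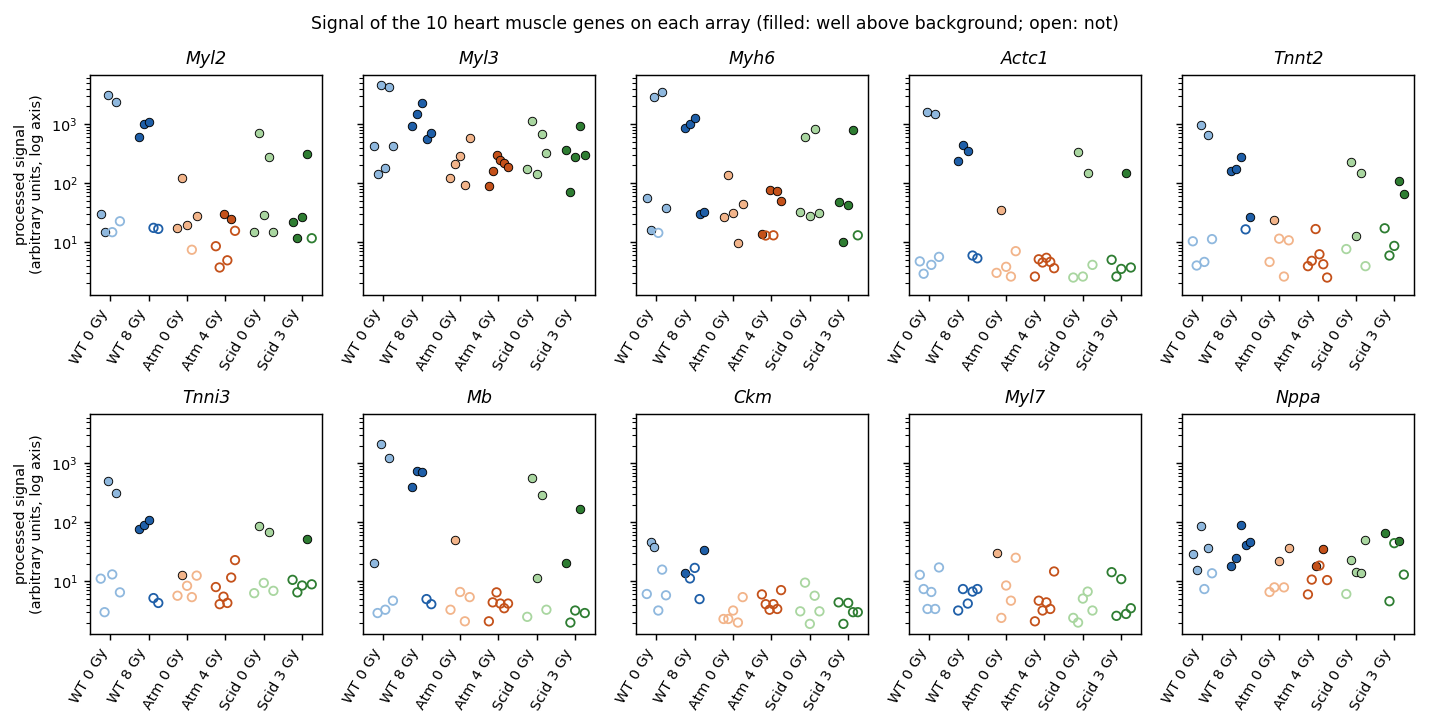
Each point is 1 array (1 mouse), with its group on the x axis and the processed signal in arbitrary units on a log y axis; filled points were well above background. In Actc1, Mb, Myl2 and Myh6 the same mice are highest, 2 of 6 in WT 0 Gy, 3 of 5 in WT 8 Gy, 1 of 5 in Atm 0 Gy, none in Atm 4 Gy, 2 of 5 in Scid 0 Gy and 1 of 5 in Scid 3 Gy; Tnni3 and Tnnt2 show most of them, with Tnnt2 also at 64.2 in another Scid 3 Gy mouse, Nppa shows few and Myl7 none.

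Actc1, Mb, Tnni3 and Tnnt2 were all 4 well above background on these 9 arrays. No other array held more than 2 of the 4, which 1 array did (Scid 0 Gy replicate 3, with Mb and Tnnt2), while 4 arrays held 1 and 18 held none. The 9 arrays were named from this after the signals had been seen, so the values of these 4 genes on them are a description. Between 7 and 9 of the 10 genes were well above background on each of the 9, against 1 to 6 on the others. These counts, and the shares that follow, include the 4 genes that named the arrays, so part of the gap was set in advance. Among the genes that did not name them, Myl3 was detected on all 32 arrays. Myh6 was detected on all 9 and on 19 of the other 23, and Myl2 on all 9 and on 13. Nppa was detected on 8 and 11, Ckm on 2 and 2, and Myl7 on 0 and 1. The 10 genes together made up 27.8 to 896 ppm of an array's summed signal on the 9 arrays (median 109) and 5.46 to 35.2 ppm (median 14.8) on the other 23. The ranges overlapped through ATM-/- 0 Gy replicate 2, the lowest of the 9, and ATM-/- 4 Gy replicate 6, at 35.2. WT 0 Gy replicate 3 at 896 was followed by WT 0 Gy replicate 5 at 238 and Scid 0 Gy replicate 2 at 197.

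A list of 35 other genes of heart muscle, which holds no member, was detected in larger number on the same arrays. Between 16 and 29 of the 35 were well above background on the 9 arrays, against 7 to 15 on the other 23. Their share of the summed signal overlapped, at 95.3 to 687 ppm (median 295) on the 9 and 63.5 to 719 ppm (median 204) on the others. Of the 34 detected at all, 12 were detected on these arrays only, against 7.53% of all 24767 genes detected on at least 1 array. Among the 12 were Cox8b, a subunit of the respiratory chain found in muscle, on 9 arrays, Myom2, a protein of the sarcomere's M-band, and Ckmt2, the mitochondrial creatine kinase of muscle, on 8 each, Pln, the regulator of the calcium pump, on 5, and Tnnc1, cardiac troponin C, on 4. Each of 22 of the 35 had its highest level in WT 0 Gy replicate 3. The same count was 1 of 18 listed skeletal muscle genes, 0 of 17 hepatocyte genes and 0 of 15 blood cell genes, and was not made over all genes. That array was dim, with a 75th percentile of 24.2, and the part of the scaling in the count was not tested. Not every heart gene took part, since Nppb was detected on 9 arrays of which 3 were among the 9, and Myh7, the slow myosin heavy chain, on 14 of which 4 were. Detection as a whole also differed between arrays. Of all spots that were not controls, 34.31 to 59.34% were well above background on the 9 and 19.64 to 49.62% on the others. The lowest of the 9 was WT 0 Gy replicate 3. How far this enters the counts of detected genes was not tested.

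**Figure D2:**
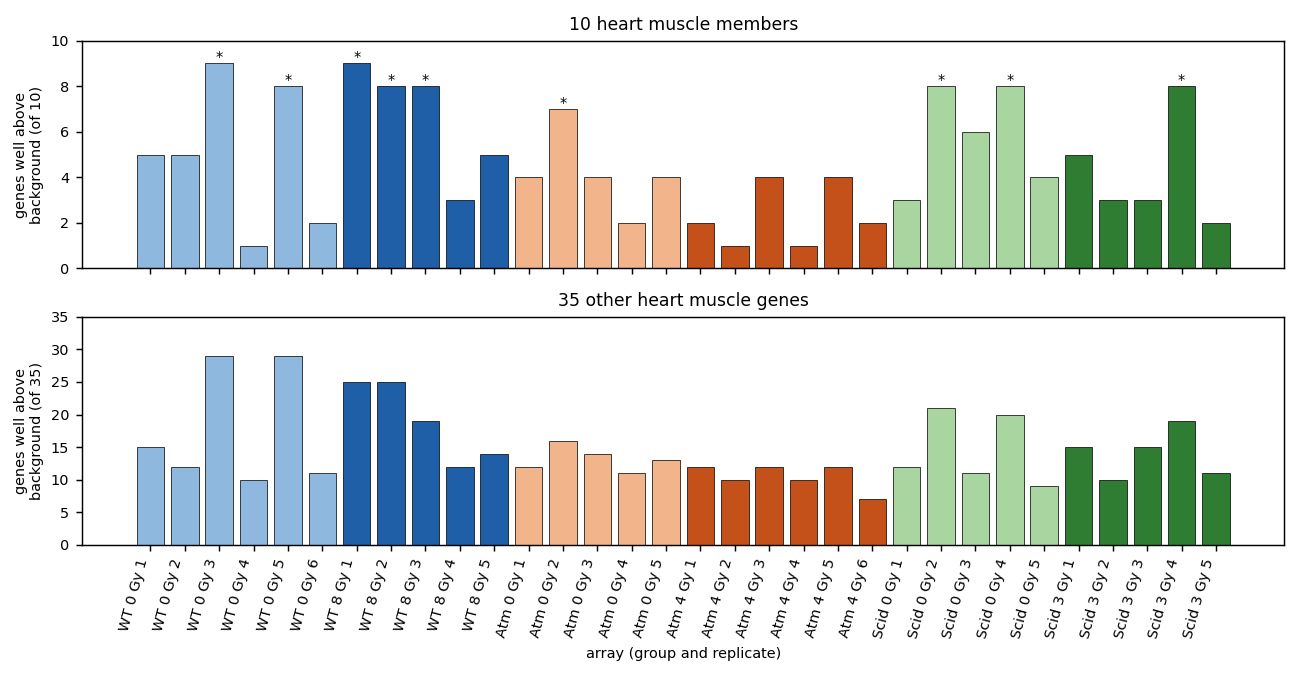
Bars count, for each of the 32 arrays on the x axis, how many of the 10 genes (upper panel) and of 35 other heart muscle genes (lower panel) were well above background, and stars mark the 9 arrays with Actc1, Mb, Tnni3 and Tnnt2 all detected. The starred arrays reach 7 to 9 of 10 and 16 to 29 of 35, above all others, which reach 6 and 15.

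The 9 arrays lay on 5 of the 9 slides and on 2 of the 4 scan days given in the scanner files, 5 of 15 arrays on the first day and 4 of 12 on the second, with none of 4 and none of 1 on the others. Slide 4 held 3 of them among its 4 arrays, WT 0 Gy replicate 3, WT 8 Gy replicate 1 and Scid 0 Gy replicate 4, while its remaining array, ATM-/- 0 Gy replicate 4, gave 2.6 for Actc1. Slides 2 and 6 held 2 of 4 each, slides 5 and 7 held 1 of 4 each, and slides 1, 3, 8 and 9 none. Arrays with and without the transcripts were thus found on 5 slides side by side. The 75th percentile of the signal, a measure of how bright an array was as a whole, ran from 24.2 to 233 on the 9 and from 17.2 to 139.9 on the others, and it was 24.2 in WT 0 Gy replicate 3, where the heart transcripts were highest.

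To set arrays of different brightness side by side, a level was computed as the log2 signal less the array's own 75th percentile, and averaged over the 10 genes. This mean level was highest in WT 0 Gy replicate 3 (4.34), followed by Scid 0 Gy replicate 2 (2.24), Scid 3 Gy replicate 4 (0.98), WT 0 Gy replicate 5 (0.77), Scid 0 Gy replicate 4 (0.56) and WT 8 Gy replicate 3 (0.43). The median array stood at -1.78 and the lowest, WT 8 Gy replicate 4, at -3.14. The other 3 of the 9 arrays lay lower on this scale, at -0.50 and -1.01 in WT 8 Gy replicates 2 and 1 and at -1.04 in ATM-/- 0 Gy replicate 2, below ATM-/- 4 Gy replicate 6 at -0.48 and, in 2 of the 3 cases, below Scid 0 Gy replicate 5 at -0.63. Neither of the arrays that overtook them had Actc1 above background, and both were dim, with a 75th percentile of 17.7 and 17.2.

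Over the 32 arrays, the mean level correlated with Myl2 and Myh6 at r = 0.96, with Actc1 and Tnni3 at 0.95, with Mb at 0.94, with Myl3 at 0.93 and with Tnnt2 at 0.92. The same value was 0.54 for Nppa, 0.52 for Ckm and -0.10 for Myl7, although each gene is itself a part of the mean. Among 19462 other genes detected on at least 3 arrays, the 10 most alike in Pearson's r were Cox6a2 (0.96), Cox8b (0.96), Slc2a4 (0.95), Tcap (0.95), Myom2 (0.95), Mybpc3 (0.94), Ckmt2 (0.93), Myh8 (0.91), Pgam2 (0.89) and Fabp3 (0.89). Cox6a2 and Cox8b are muscle forms of cytochrome oxidase subunits, Tcap, Myom2 and Mybpc3 bind within the sarcomere, Slc2a4 is the insulin-responsive glucose transporter, Myh8 a myosin heavy chain of perinatal skeletal muscle, Pgam2 a glycolytic enzyme of muscle and Fabp3 the fatty acid carrier of the heart. Of these 10, 8 stood in the list of 35 other heart genes.

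These correlations are a description with no test, since all levels share the scaling of their array and 9 arrays stand apart from 23. Spearman's rho ran from 0.63 for Fabp3 to 0.91 for Cox8b. Without the arrays farthest from the median, WT 0 Gy replicate 3 and Scid 0 Gy replicate 2, r was 0.74 for Pgam2 and 0.93 for Cox8b at the ends of its range. Over the 23 arrays outside the 9, r ran from 0.62 for Myh8 to 0.83 for Cox8b in 9 of the 10 genes and was 0.05 for Fabp3. Of these 10 genes, Cox8b, Myom2, Ckmt2 and Pgam2 were detected on none of the 23 arrays, Mybpc3 on 1 and Tcap on 5. Cox6a2 was detected on 22 and Fabp3 on 12. The mean level there also includes Actc1 and Tnni3, detected on none of the 23. These values of r thus rest in part on signals near background, and what they reflect was not tested.

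**Figure D3:**
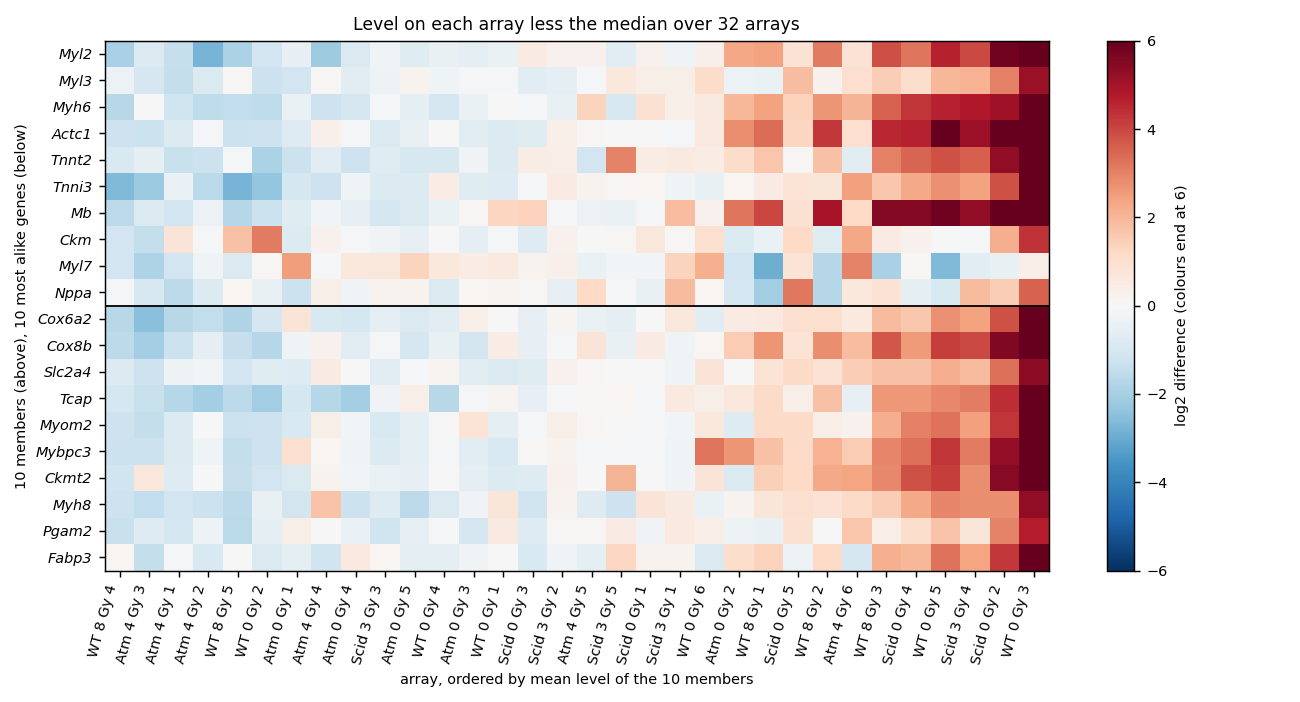
Colours give the level of each gene (rows) on each of the 32 arrays (columns, ordered by the mean level of the 10 genes) less that gene's median, in log2 units with the colours ending at 6; the 10 genes of the set are above the line and the 10 most alike genes below it. The right-hand columns are high in most rows, with WT 0 Gy replicate 3 at the far right, while Myl7 shows no such rise.

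Transcripts of other tissues that a needle to the heart could meet were counted and summed in the same way. Between 4 and 11 of 18 listed skeletal muscle genes (median 6) were well above background on the 9 arrays and 3 to 10 (median 6) on the others. Of the 18, which do not include Myh8, 0 had 7 or more of the 9 arrays among their 9 highest levels. The same count was 6 of the 10 heart genes (4 of these 6 had named the arrays) and 8 of the 35 other heart genes. It was 0.185% of 19471 genes detected on at least 3 arrays, and some of the 18 were detected on fewer. A count of 0 is near that share, and the lists of other tissues and of blood cells also gave 0. It therefore says nothing particular about skeletal muscle. The fast-muscle genes Myh1, Myh4, Myl1, Actn3 and Casq1 were well above background on no array. Other genes of the list went the other way, with Pvalb and Tnnt1 on all 32 arrays, Tnni2 on 30, Tnnt3 on 25 and Acta1 on 20. Tnnc2 was detected on 13 arrays, Atp2a1 on 11 and Mylpf on 8. The 18 genes made up 18.0 to 76.3 ppm of the 9 arrays and 17.8 to 321 of the others. Myh2, a fast myosin heavy chain, was detected on 1 array, Scid 0 Gy replicate 3, at a level of 5.64, and that array was not among the 9. Of 10 genes of lung epithelium, Sftpa1, Scgb3a2 and Cldn18 were detected on no array. Napsa was detected on 31 arrays, Sftpd on 29, Lamp3 on 25, Scgb1a1 on 23, Sftpc on 5, Ager on 2 and Sftpb on 1. Between 4 and 5 of the 10 were detected on each of the 9 arrays, against 1 to 5 on the others. The lung list made up 7.90 to 24.4 ppm of the 9 arrays and 4.70 to 22.2 of the others.

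Genes of hepatocytes were high on a partly overlapping group of arrays. The 17 listed made up 24300 ppm in WT 0 Gy replicate 5, 17000 and 25300 in WT 8 Gy replicates 1 and 2, and 15000 in ATM-/- 4 Gy replicate 3. The first 3 of these belong to the 9 arrays and the last does not, with Actc1 there at 4.5. WT 0 Gy replicate 3, the array highest in heart transcripts, held 89.7 ppm of hepatocyte signal, and Scid 0 Gy replicate 2 held 72.3. Hepatocyte shares ran from 72.3 to 25300 over the 9 arrays (median 317) and from 41.5 to 15000 over the other 23 (median 101). Between 5 and 17 of the 17 genes (median 16) were well above background on the 9 and 4 to 17 (median 7) on the others. No hepatocyte gene was at background on all arrays.

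Shares of endothelial, fibroblast, smooth muscle and fat cell genes overlapped between the 9 arrays and the rest, while slightly more of these genes were detected on the 9. The share of all spots detected also ran higher on the 9, at 34.31 to 59.34% against 19.64 to 49.62%. Endothelial genes made up 553 to 1180 ppm (median 666) against 382 to 1090 (median 702), with 8 to 11 genes detected against 6 to 9. Tek and Emcn were detected on no array, but Cdh5 was detected on 3 and Tie1 on 2, only among the 9. Egfl7 was detected on all 9 and on 7 of the other 23. Kdr, Vwf and Aqp1, bright on all 32 arrays, weigh heavily in the endothelial share. Fibroblast and matrix genes made up 154 to 326 (median 215) against 34.0 to 368 (median 149), with 7 to 9 genes detected against 2 to 8. Pdgfra was detected on no array, and Lum on 2, only among the 9. Smooth muscle genes made up 34.7 to 85.4 (median 57.4) against 32.6 to 110 (median 60.5), with 5 to 6 genes detected against 3 to 5. Fat cell genes made up 4.56 to 95.8 (median 7.52) against 2.06 to 19.3 (median 5.99), with 3 to 7 genes detected against 1 to 6, with Lep on no array and with WT 8 Gy replicates 1 and 2 the highest, at 95.8 and 84.6. The part of these tissues in the heart signal was not tested.

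**Figure D4:**
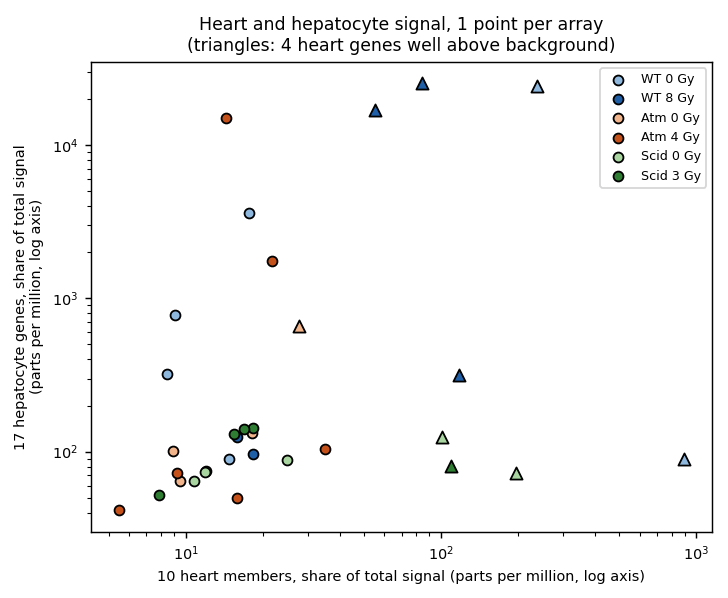
Each point is 1 array, placed by the share of its summed signal taken by the 10 heart genes (x axis) and by 17 hepatocyte genes (y axis), both in ppm on log axes; triangles are the 9 arrays with Actc1, Mb, Tnni3 and Tnnt2 all detected. The array highest in heart signal, at 896, is low in hepatocyte signal, at 89.7, while 3 triangles are at 17000 to 25300 on the hepatocyte axis, near 1 round point at 15000.

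Whether irradiation changed these transcripts was asked within each genotype, with limma on the levels of all 32 arrays and p-values adjusted by Benjamini and Hochberg over 15164 genes. In WT mice, the log2 difference of 8 Gy less 0 Gy was -0.72 for Myl2 (95% interval -3.47 to 2.02, adjusted p = 0.791), -0.58 for Myh6 (-3.27 to 2.10, 0.828) and -0.26 for Tnnt2 (-2.64 to 2.13, 0.916). Myl2 levels were 0.07 ± 2.82 (SD, n = 5) at 8 Gy and 0.79 ± 3.69 (SD, n = 6) at 0 Gy, so the spread between mice was wider than the difference. None of the 5 tested genes was called at an adjusted p under 0.05, and none had an unadjusted p under 0.05, while 7.21% of all genes were called. Tnnt2 had passed the detection filter through the WT 8 Gy group alone, with 4 of 5 arrays there against 2 of 6 at 0 Gy. Its values between these groups are therefore a description, and it enters each median of the 5. The median difference of the 5 was -0.72, against -0.02 over all genes, and -0.04 with scan day as a block. Group medians at 8 and 0 Gy went up instead for Myl2 (1.37 and -1.09), Myh6 (1.87 and -0.26) and Tnnt2 (-0.54 and -2.36). They hardly differed for Nppa (-1.81 and -1.84) and went down for Myl3 (2.46 and 2.93). Leaving out WT 0 Gy replicate 3 alone moved Myl2 to 0.53, Myh6 to 0.56 and Tnnt2 to 0.97. Myl3 and Nppa stayed below 0 whichever array was left out. The 9 arrays were named for high heart transcripts, Tnnt2 among them, so leaving them out changes these values by construction. They also hold 3 of the 5 mice at 8 Gy and 2 of the 6 at 0 Gy, so few mice remain. Without them Myl2 differed by -1.50, Myh6 by -1.07, Myl3 by -0.03, Nppa by 0.25 and Tnnt2 by 0.32, and 1 of the 5 then had an unadjusted p under 0.05, none being called.

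In ATM-/- mice, 4 Gy less 0 Gy gave -0.94 for Myl2 (95% interval -3.68 to 1.81, limma adjusted p = 0.867), -0.03 for Myh6 (-2.71 to 2.65, 0.997) and -0.42 for Tnnt2 (-2.80 to 1.97, 0.943). None of the 5 was called or had an unadjusted p under 0.05, and 0.237% of all genes were called. Their median was -0.03, against -0.15 over all genes. Tnnt2 was well above background on none of the 6 arrays at 4 Gy and on 1 of 5 at 0 Gy, so that its fitted difference rests on signals near background and gives no fold. Myl2 was well above background on 2 of 6 arrays at 4 Gy and on 4 of 5 at 0 Gy. Tnnt2 was also detected on only 2 of 6 WT 0 Gy, 3 of 5 Scid 0 Gy and 2 of 5 Scid 3 Gy arrays. Its differences in the other comparisons share this limit in part.

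In Scid mice, 3 Gy less 0 Gy gave -1.52 for Myl2 (95% interval -4.38 to 1.35, limma adjusted p = 0.828), -1.60 for Myh6 (-4.40 to 1.21, 0.803) and -0.59 for Tnnt2 (-3.08 to 1.90, 0.937). Again none of the 5 was called or had an unadjusted p under 0.05, beside 1.07% of all genes called. The median of the 5 was -0.71, against 0.01 over all genes, and without the 9 arrays it was -0.56, with Myl2 at -0.77 and Myh6 at -1.03. Nppa differed by -0.85 in WT, 0.25 in ATM-/- and -0.07 in Scid mice, and Myl3 by -0.92, 0.04 and -0.71, each with a 95% interval that spans 0. For none of the 5 genes were the irradiated and unirradiated mice of a genotype free of overlap, as they were for 5.06%, 2.12% and 2.69% of all genes in WT, ATM-/- and Scid mice.

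Genotypes were compared at 0 Gy, against the same 6 WT mice. ATM-/- less WT was -1.91 for Myl2 (95% interval -4.65 to 0.84), -1.75 for Myh6 (-4.43 to 0.93) and -1.88 for Tnnt2 (-4.26 to 0.51), each with an adjusted p of 0.999 by limma. Myl3 came nearest to the threshold, at -1.53 with an unadjusted p of 0.0502. The 5 genes had a median of -1.75, against -0.01 over all genes. Leaving out WT 0 Gy replicate 3 alone moved Myl2 to -0.66, Myh6 to -0.61, Tnnt2 to -0.65 and Myl3 to -0.72. Without the 9 arrays, which by construction takes the highest mice out (WT replicates 3 and 5 and ATM-/- replicate 2), the median was -0.12. Scid less WT was 0.29 for Myl2 (-2.46 to 3.03), 0.65 for Myh6 (-2.03 to 3.33) and 0.59 for Tnnt2 (-1.79 to 2.98), with adjusted p-values of 0.965, 0.917 and 0.917. The median of the 5 was 0.49, against 0.09 over all genes, and 1.13 without the 9 arrays. Of all genes, 0.0% were called in either comparison, where 344 and 497 had an unadjusted p under 0.05, and none of the 5 heart genes did. The groups overlapped in all 5 genes, while 0.0989% of all genes did not overlap between ATM-/- and WT and 0.0264% between Scid and WT.

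The difference between the responses to irradiation was tested for each pair of genotypes. None of the 5 genes was called by limma or had an unadjusted p under 0.05, and 0.0% of all genes were called, with 1295, 1078 and 641 genes at an unadjusted p under 0.05 for ATM-/- against WT, Scid against WT and Scid against ATM-/-. With intervals as wide as those above, a lack of calls does not show that the groups held equal amounts.

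**Figure D5:**
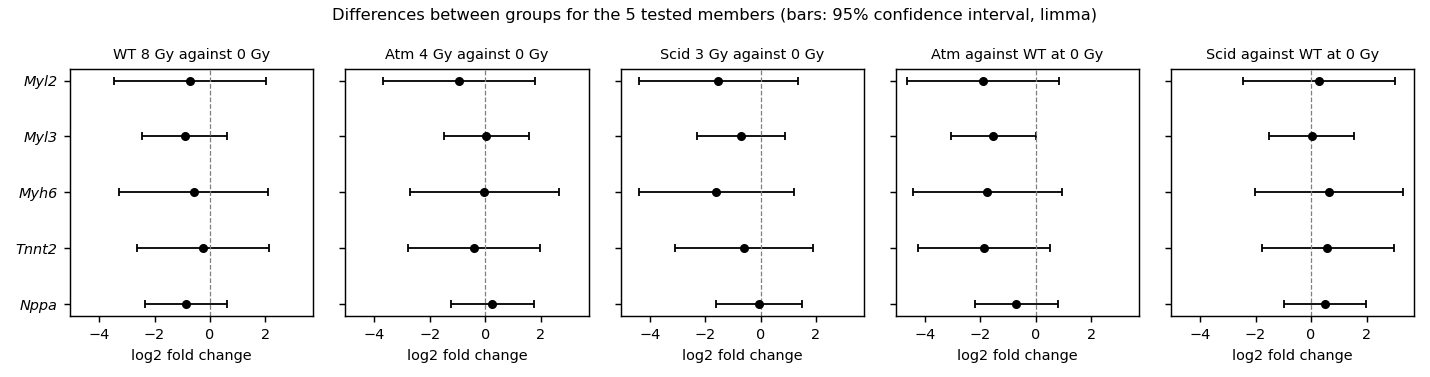
Points give the log2 difference between group means of the 5 tested genes in 5 comparisons, and bars the 95% confidence interval from limma. Myl2, Myh6 and Tnnt2 have the widest bars, and every interval shown spans 0, with that of Myl3 between ATM-/- and WT at 0 Gy ending at 0.00.

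Among the other heart genes, 13 of 35 were tested and 1 was called, in WT mice after irradiation, beside 7.21% of all genes there, with none in the other 7 comparisons. Hrc, a calcium-binding protein of the sarcoplasmic reticulum, fell by 1.67 on the log2 scale in WT mice after 8 Gy (SE 0.43, limma adjusted p = 0.0116), from 1.20 ± 1.08 (SD, n = 6) to -0.48 ± 0.64 (SD, n = 5). It is named because it was called, after its values were seen. Hrc was well above background on 31 of 32 arrays, and 3 of the 9 arrays were among its 9 highest. Its call was lost without WT 8 Gy replicate 1 (-1.43, adjusted p = 0.0638), without the 9 arrays (-1.25, adjusted p = 0.35), with the slide as a block (-1.79, 0.118) and with normexp background correction (-0.56, 0.105). The 9 arrays hold 3 of the 5 WT 8 Gy mice and 2 of the 6 WT 0 Gy mice, so few are compared without them. Differences in ATM-/- mice (-0.93, adjusted p = 0.377) and Scid mice (-0.61, adjusted p = 0.752) did not pass, and the medians of the 13 tested were -0.56, -0.22 and -0.24 in WT, ATM-/- and Scid mice.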

How the data were processed

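RNA from blood of 32 mice, 1 array per mouse, was measured on Agilent 1-colour arrays. The deposited scanner tables give each spot's processed signal, an intensity that Feature Extraction (11.5.1.1 per the file headers, 12.0.2 per the submitters' processing notes) had background-subtracted. The log2 values deposited in the series table were used as an alternative: 98.1 to 99.31% of them differed from the scanner's log2 signal by the same amount throughout an array (within 0.01), and how that amount was set is unknown (column medians 5.51 to 6.44).

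Control spots and outlier spots were left out, spots of 1 probe were averaged, and each array's log2 signal was set to its 75th percentile. A gene was its kept probe of highest mean signal. Probes were kept (18373 of 39429) if some group had 4 or more arrays marking them well above background. Probes were named by accession (27508), symbol (3544), synonym (404) or the file's own name (7973), from a RefSeq table of GRCm38.p6 of which no positions were used. Probe sequences are those in the scanner files.

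Means of the 6 groups were compared by limma 3.58.1 in R 4.3.3 (two-sided, adjusted over all genes tested, called under 0.05). The scripts were tested on simulated data. All 10 members are named, as are, of each marker list, defining members at background and the brightest, and the 10 genes most alike in Pearson's r. Members, lists and tests were chosen with earlier results of these data known. The number of arrays limits the precision. Separate mice are the replicates.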

Additional observations from a re-analysis of the deposited data

Results flagged for a closer look

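Dixon's test was run on the level scale for 60 combinations of a gene and a group. In 9 of them, 1 mouse lay further from the rest of its group than the test allows. Chance alone flags about 1 in 20 where combinations are independent. These were not, since the genes were measured on the same mice and the levels of most of them went together. The count of flags can therefore not be set against that rate, and most flags came from the same pair of mice. ATM-/- 0 Gy replicate 2 stood above its group in Myl2 (1.28, against -1.92 to -1.54 in the other 4 mice), in Myh6 (1.45, against -1.52 to -0.92), in Actc1 (-0.52, against -4.08 to -3.42) and in Mb (-0.04, against -4.14 to -3.17). Scid 3 Gy replicate 4 stood above its group in Myl2 (2.91, against -1.68 to -0.79), in Myh6 (4.27, against -1.52 to -0.20) and in Actc1 (1.81, against -4.21 to -2.95). Each of these mice was the only one of its group with the heart transcripts, and groups with 2 or 3 such mice gave no flag in these genes. Nppa in WT 0 Gy replicate 3 was 1.87, against -2.59 to -1.53 in the other 5 mice. Myl7 in ATM-/- 4 Gy replicate 6 was -0.27, against -5.12 to -3.32, although it was not well above background there.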

How the results depend on the processing

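No member was called in any of the 8 comparisons under any of 12 other settings, when any 1 of the 32 arrays was left out, or without the 9 arrays with heart transcripts, an alternative chosen after seeing the data. The number of arrays whose mean level lay more than 2 above the median was 6, and also 6 with quantile normalization and with the array median, 8 with the percentile of probes detected on all arrays, and 1 with normexp, which adds an offset of 50 to every signal. The sign of single log2 differences, none of them called, changed as follows, and the cause was not tested. With normexp they became 0.10 for Myl3 in WT, 0.17 for Tnnt2, 0.02 for Myh6 and -0.37 for Myl3 in ATM-/-, 0.11 for Nppa in Scid, 0.03 for Nppa in ATM-/- against WT, and -0.08 for Myl2 and -0.17 for Myl3 in Scid against WT. With quantile normalization they became 0.17 for Myh6 in ATM-/- and -0.09 for Myl3 in Scid against WT. The array median gave 0.08 for Tnnt2 in WT, -0.15 for Myl3 in ATM-/- and -0.09 for Myl3 in Scid against WT, and the percentile of detected probes 0.17, 0.22, 0.14 and -0.18 for Tnnt2 in WT, Myh6 in ATM-/-, Nppa in Scid and Myl3 in Scid against WT. The authors' values gave 0.17 for Tnnt2 in WT, -0.10 for Myl3 in ATM-/-, 0.04 for Nppa in Scid and -0.14 for Myl3 in Scid against WT. With slide as a block Nppa was -0.13 and Myl3 -0.28 in ATM-/-, and with scan day as a block -0.14 and -0.25, with 0.17 for Tnnt2 and 0.02 for Myl2 in WT. Array weights gave -0.04 for Myl3 in ATM-/- and 0.23 for Nppa in Scid. Without the 9 arrays Tnnt2 was 0.32 and Nppa 0.25 in WT, Myh6 0.49 in ATM-/- and Tnnt2 0.48 in Scid. With 1 array left out, values in WT ran from -1.41 to 0.53 for Myl2, -1.23 to 0.56 for Myh6 and -0.90 to 0.97 for Tnnt2, each highest without WT 0 Gy replicate 3. In ATM-/- they ran from -0.45 to 0.49 for Myh6, -0.02 to 0.52 for Nppa and -0.23 to 0.25 for Myl3, in Scid from -1.15 to 0.24 for Tnnt2 and -0.39 to 0.54 for Nppa, in ATM-/- against WT from -2.51 to -0.66 for Myl2, -2.40 to -0.61 for Myh6, -2.53 to -0.65 for Tnnt2, -0.94 to -0.04 for Nppa and -2.01 to -0.72 for Myl3, and in Scid against WT from -0.63 to 1.54 for Myl2, -0.04 to 1.79 for Myh6, -0.25 to 1.82 for Tnnt2, -0.11 to 1.15 for Nppa and -0.46 to 0.84 for Myl3. Replicate numbers were not taken to pair the arrays. The deviations of same-numbered arrays correlated at -0.726 to 0.489 (median 0.0393), with 31 of 76 pairs over 0.1. Those of differently numbered arrays correlated at -0.679 to 0.791 (median -0.00523), with 117 of 350 pairs over 0.1. With the replicate number as a block 0 members were called, and Myl3 in ATM-/- was -0.09. The calls were then 935, 75 and 196 genes in WT, ATM-/- and Scid mice, against 1093, 36 and 163. Over all genes, calls ran from 201 (without the 9 arrays) to 3047 (array weights) in WT, from 0 (slide or scan day as a block) to 545 (array weights) in ATM-/- and from 0 (normexp, or without the 9 arrays) to 1232 (array weights) in Scid mice. Leaving out the 9 arrays also lowers the number of mice compared. The median difference of all genes in WT, -0.02, was 0.13 with quantile normalization, 0.32 when scaled to the array median, 0.41 to the percentile of detected probes, 0.37 in the authors' values, -0.41 with probes well above background on all arrays and -0.64 with no filter. The members' median there, -0.72, was -0.04 with scan day as a block. Signals near background limit Myl7, Ckm and the dim arrays.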

Other observations

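Apart from the 10 genes and the list of 35 other heart genes, 22 further genes had at least 7 of the 9 arrays among their 9 highest levels, of 36 in all among 19471 genes. They were found after the arrays had been named, and are given as a description. The widest gaps between median levels on the 9 arrays and on the other 23 were those of Hspb8, a small heat shock protein (-0.75 and -3.35), Tacc2, a coiled-coil protein (-0.58 and -2.53), and Slc2a4, the insulin-responsive glucose transporter (-1.71 and -3.61). Hspb8 had 8 of the 9 arrays among its highest and the other 21 genes had 7. Hspb8 was well above background on 10 arrays, Tacc2 on 14 and Slc2a4 on 7. The 22 also held genes with small gaps, such as Usp5, a deubiquitinating enzyme (3.16 and 2.68), and Prdx1, a peroxiredoxin (3.22 and 2.65), both detected on 31 or 32 arrays.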
